A study of Mus musculus with 6 samples.

Results

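Lysosome and autophagy genes were described on all 6 arrays of a study of melan-a cells, an immortal line of mouse pigment cells (melanocytes) grown from embryonic skin of C57BL/6 mice. The genes came from a list of 38: proteases and other hydrolases of the lysosome with their cofactors, lysosomal membrane proteins, subunits of the proton pump that acidifies the lysosome, the transcription factors Tfeb and Tfe3, and proteins of autophagy. Of the 38, 37 were named by a probe set, among 18193 genes in all, and Cd63, a membrane protein of lysosomes and melanosomes, was not. Where several probe sets named a gene, the brightest on average was used. All cells carried delta-BRAF-ER, an activated BRAF kinase that tamoxifen switches on. The labels gave 1 array each to cells with activated BRAF and ZEB2, activated BRAF and SNAIL2, activated BRAF and TWIST1, activated BRAF and ZEB1, activated BRAF alone (BRAF-on), and BRAF not activated (BRAF-off). ZEB2, SNAIL2, TWIST1 and ZEB1 are transcription factors of embryonic development, introduced by transduction. The labels do not say whether the lines were clones, and cells given tamoxifen without delta-BRAF-ER were not analysed here. With 1 array per group no test could be run and no spread was known, so every ratio below describes 2 arrays.

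Lysosomes are acidic compartments in which hydrolases break down proteins, glycans and lipids, including cargo that autophagy delivers. TFEB and TFE3 bind a short sequence in the promoters of many lysosomal genes, called the CLEAR element (coordinated lysosomal expression and regulation), whose core is CACGTG. MITF, the regulator of the melanocyte lineage, belongs to the same family and recognises the same core. The melanosome, in which pigment is made, is a lysosome-related organelle.

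Ratios were taken above a floor of 63.7 signal units, the median of all values, and 2-fold was the size that counted. Of the 37 named members, 35 reached the floor on all 6 arrays by their used probe set. Ctss, a cathepsin typical of antigen-presenting cells, was under it on all 6, and Cln3, a lysosomal membrane protein, reached it in BRAF-on only (82.0) by its used probe set, so that it entered a comparison only through that array and its ratios are bounds. A second Cln3 probe set reached the floor with ZEB1 (123) and in BRAF-on (140), at a log2 ratio of -0.19. As bounds past 2-fold, it was at least 1.13 for BRAF-on over BRAF-off. With ZEB2, SNAIL2 and TWIST1 it was at most -1.13 over BRAF-on. Counts of members below rest on the used probe sets only. The mouse probe sets named for the 4 added factors did not mark their arrays: 0 of 12 were at least 2-fold above BRAF-on where the label names the factor. Of the 12, 3, all of Zeb1, were under the floor on both arrays. Whether the 12 read the introduced sequences is not known, so the labels could not be checked by them. The 5 Zeb2 probe sets were above BRAF-on on their array (log2 ratios of 0.20 to 0.77). The others that were measured lay below BRAF-on, with Snai2 at -0.41 and -1.51, Twist1 at -0.28 and Zeb1 at -0.30. An array is therefore called here by the label alone, and every direction below is that of the array so labelled. Of 8 melanocyte markers, all reached the floor on every array but that labelled TWIST1, where 6 were under it. Their summed signal was 112366 with ZEB2, 135547 with SNAIL2, 2352 with TWIST1 and 25789 with ZEB1, against 65208 in BRAF-on and 88578 in BRAF-off. In such bulk RNA, fewer cells of a type and less RNA per cell cannot be told apart. Of 11 macrophage and leukocyte markers, between 3 and 6 reached the floor, with summed signals of 856 to 2483, the highest with ZEB1. Adgre1, Itgam, Ptprc, Tyrobp and Cd14 were under the floor on all 6 arrays. The 6 others all lay above BRAF-on with ZEB1, at a median log2 ratio of 0.69. The furthest were Cd53, a leukocyte surface protein, at 2.48 with ZEB1 (1028, against 184 in BRAF-on and under the floor in BRAF-off), and Cd68 at 1.87. Fibroblast markers summed to 20911 with TWIST1, against 8658 in BRAF-on, and 5 to 7 of 8 reached the floor. Of 7 keratinocyte markers, 1 to 3 did. Probe sets for the bacterial poly-A control transcripts were 2.44-fold higher with SNAIL2 than in BRAF-on, 1.33-fold with ZEB2, 1.39-fold with ZEB1 and 0.879-fold with TWIST1. Whether each sample was given the same amount of these controls is not known. The part of these differences in the results below was not tested, beyond rescaling the arrays on the poly-A controls (values beside the medians).

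In RefSeq promoters of build GRCm38.p6, from 250 bases before to 50 after a gene's start, 34 of the 38 members had an entry. CACGTG, which reads the same on both strands, was found in 14 of these 34 (41.2%), in 8.09% of all 27025 genes with an entry and in 11.6% of the 9756 of them that reached the floor. The longer TCACGTGA, which contains it, was in 7 members (20.6%) and in 2.18% of genes at the floor. CAGGTG, searched on both strands as the E-box letters that SNAIL and ZEB proteins are known to recognise, was in 6 members (17.6%), against 20.9% of genes at the floor. A match is a description of letters and not a binding site. CACGTG matches are shown for members that carried the core and were among the furthest from BRAF-on on an array (Gaa at 1.99-fold). Lipa, Man2b1 and Gabarapl1, also past 2-fold over BRAF-on on an array, had no CACGTG, and Npc1 had no promoter entry. Map1lc3b, at 1.99-fold with ZEB1, had no CACGTG either. CAGGTG matches, which Ctsa, Gaa and Atp6v0d1 had too, are not shown. Each match stands with 12 bases on either side, 5′ to 3′ on the gene's strand, with the core in capitals.

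Sgsh, chr11:119355522-119355551, minus strand: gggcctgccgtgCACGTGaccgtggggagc
Naglu, chr11:101070009-101070038, plus strand: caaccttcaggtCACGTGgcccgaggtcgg
Atp6v0d1, chr8:105566050-105566079, minus strand: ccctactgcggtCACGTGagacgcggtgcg
Ctsd, chr7:142387908-142387937, minus strand: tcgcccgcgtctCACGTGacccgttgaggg
Gaa, chr11:119267811-119267840, plus strand: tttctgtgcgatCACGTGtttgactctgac
Glb1, chr9:114401018-114401047, plus strand: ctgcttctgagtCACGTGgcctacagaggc
Ctsa, chr2:164833749-164833778, plus strand: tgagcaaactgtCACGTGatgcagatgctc
Ctsa, chr2:164833766-164833795, plus strand: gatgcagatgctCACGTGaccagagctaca

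The core began 29 bases before the start of Sgsh, 73 before that of Naglu, 3 before that of Atp6v0d1, 98 before that of Ctsd, 140 before that of Gaa and 48 before that of Glb1. Ctsd had a further core 245 bases before its start. Atp6v0d1, Ctsd and Ctsa carried the longer TCACGTGA, the other four the core alone. Lamp1, whose protein is among the most abundant of the lysosomal membrane, had 4 cores, the most of any member. Its whole promoter is shown for their spacing, at chr8:13158911-13159210 on the plus strand, with the 4 cores in capitals.

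Lamp1: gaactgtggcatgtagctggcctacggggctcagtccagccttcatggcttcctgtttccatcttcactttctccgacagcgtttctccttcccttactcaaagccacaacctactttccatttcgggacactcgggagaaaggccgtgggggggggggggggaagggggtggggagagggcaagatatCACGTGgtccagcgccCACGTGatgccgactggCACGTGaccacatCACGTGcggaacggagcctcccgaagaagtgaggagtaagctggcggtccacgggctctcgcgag

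By the authors' scaling the members as a group were higher than BRAF-on on the arrays labelled SNAIL2, ZEB1 and ZEB2 and near it on that labelled TWIST1, and scaling on the poly-A controls turned SNAIL2 and ZEB2 below it. With SNAIL2 the median log2 ratio over the 36 members entered was 0.57, against 0.06 over all genes, and 29 of 36 lay above 0, against 54.5% of all genes. In that comparison 7 members were at least 2-fold higher, where the share over all genes was 5.61%, and 0 were 2-fold lower (6.42% of all genes). With ZEB1 the median was 0.55, against 0.07 over all genes, and 35 of 36 lay above 0, against 56.7%. The member below 0 was Cln3, which entered only through BRAF-on and so counts below 0 with each factor. There 4 members were at least 2-fold higher (4.49% of all genes) and 0 lower (3.93%). With ZEB2 the median was 0.30, against -0.00 over all genes, 28 of 36 lay above 0 (49.2% of all genes), and 1 was at least 2-fold higher (1.76%) and 0 lower (0.583%). With TWIST1 the median was -0.02, 15 of 36 lay above 0 (50.4% of all genes), and 0 members were 2-fold apart in either direction (2.03% and 2.02% of all genes).

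On arrays scaled on the poly-A controls, the members' median turned to -0.71 with SNAIL2, where all genes moved to -1.11, and to -0.12 with ZEB2, where all genes moved to -0.40, while it stayed at 0.08 with ZEB1, where all genes moved to -0.37. Relative to the median of all genes, the members were then higher by 0.40, 0.29 and 0.46 on the log2 scale. With TWIST1 that scaling gave 0.16 for the members and 0.18 for all genes, and median centring 0.17 and 0.19. A single gene's ratio to BRAF-on is then lower by 1.29 with SNAIL2, by 0.42 with ZEB2 and by 0.47 with ZEB1, where it is above the floor. The signals and ratios of single genes below are by the authors' scaling.

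**Figure D1:**
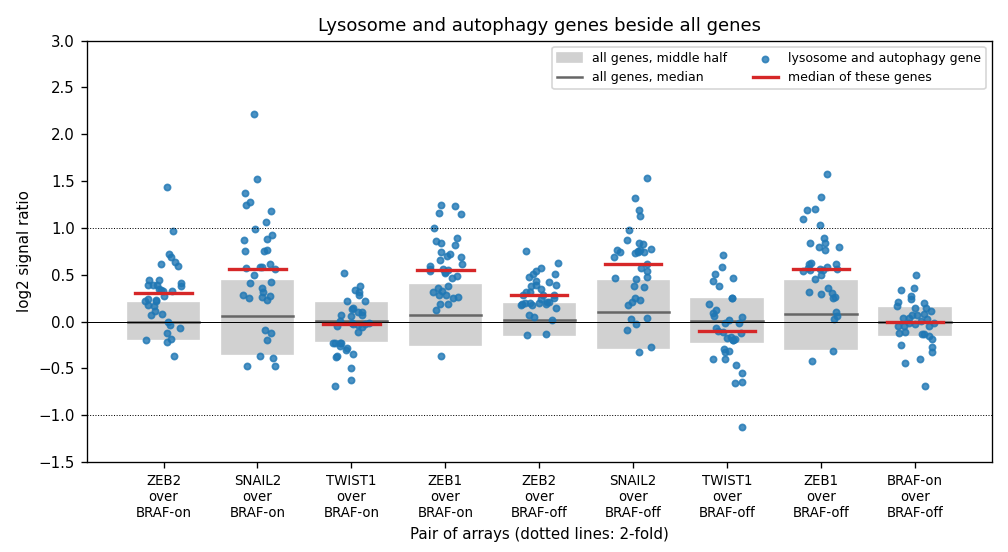
Log2 signal ratio (vertical axis) of each lysosome or autophagy gene (blue points) for 9 pairs of arrays, with their median (red), over the quartile range of all genes (grey box) and the median of all genes (grey line), by the authors' scaling. The red line lies above the grey box with SNAIL2, ZEB1 and ZEB2 over either control array, and inside it with TWIST1 and for BRAF-on over BRAF-off. On poly-A control scaling the SNAIL2 medians over both control arrays and the ZEB2 median over BRAF-on are below 0, and the TWIST1 median over BRAF-off is above 0.

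With BRAF activation alone the members' median lay at that of all genes. The median log2 ratio of BRAF-on over BRAF-off was -0.00 over 36 members, as over all genes, with 18 above 0 (49.7% of all genes). By the used probe sets no member was 2-fold higher (1.04% of all genes) or lower (0.384%). The second Cln3 probe set was past 2-fold higher, as a bound. Sgsh lay furthest down, at a log2 ratio of -0.69, and was the one member at least 1.5-fold lower, a size that 2.39% of all genes reached, while 0 were 1.5-fold higher (4.01%). Lipa, the lysosomal acid lipase that frees cholesterol from its esters, was at -0.44 and Naglu at -0.40. The cysteine protease gene Ctsl was furthest up, at 0.50. On median-centred arrays the members' median was -0.20, with that of all genes also at -0.20, and on poly-A control scaling both were at 0.25.

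The hydrolases of glycans and lipids held most of the members' ratios past 2-fold over BRAF-on with SNAIL2, by the authors' scaling. Of 13 such genes, 4 were at least 2-fold higher with SNAIL2 than in BRAF-on (5.61% of all genes) and 2 with ZEB1 (4.49%), and their medians were 0.88 and 0.54 by the authors' scaling, or -0.41 and 0.07 on the poly-A controls. Sgsh, the sulfamidase of heparan sulfate breakdown, had signals of 248 with ZEB2, 426 with SNAIL2, 112 with TWIST1 and 110 with ZEB1, against 91.8 in BRAF-on and 148 in BRAF-off. It was thus high on the ZEB2 and SNAIL2 arrays, by 2.71-fold and 4.64-fold over BRAF-on, and nearer BRAF-on with TWIST1 and ZEB1. Sgsh lay close to the floor in BRAF-on, and its second probe set passed the floor only with SNAIL2 (112) and in BRAF-off (73.1).

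Naglu, which encodes another enzyme of heparan sulfate breakdown, had signals of 1243 with ZEB2, 1819 with SNAIL2, 663 with TWIST1 and 1488 with ZEB1, against 633 in BRAF-on and 833 in BRAF-off. It was 2.87-fold above BRAF-on with SNAIL2, 2.35-fold with ZEB1 and 1.96-fold with ZEB2, and near it with TWIST1. Lipa had 3437 with ZEB2, 5036 with SNAIL2, 1289 with TWIST1 and 2276 with ZEB1, against 2084 in BRAF-on and 2824 in BRAF-off. Its log2 ratio to BRAF-on was 1.27 with SNAIL2 and -0.69 with TWIST1, and its other probe sets gave 1.67 and 1.55 with SNAIL2, and -1.29 and -0.70 with TWIST1. Lipa was thus the member lowest relative to BRAF-on with TWIST1, and against BRAF-off it was the one member 2-fold lower there (log2 ratio -1.13).

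Man2b1, the lysosomal alpha-mannosidase, had 3181 with ZEB2, 4706 with SNAIL2, 2047 with TWIST1 and 3174 with ZEB1, against 2074 in BRAF-on and 2063 in BRAF-off. The TWIST1 array and both control arrays were thus alike for Man2b1, and the SNAIL2 array was 2.27-fold above BRAF-on. Glb1, the beta-galactosidase whose activity is used to stain senescent cells, had 1065 with ZEB2, 1440 with SNAIL2, 1120 with TWIST1 and 1734 with ZEB1, against 783 in BRAF-on and 811 in BRAF-off. All 4 arrays with an added factor lay above both controls, with ZEB1 at 2.22-fold over BRAF-on. Glb1 had the highest log2 ratio of any member with TWIST1, 0.52.

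The other hydrolases stayed under 2-fold in their used probe sets. Gaa, which breaks down glycogen, was 1.99-fold above BRAF-on with SNAIL2 and 1.62-fold with ZEB1, and its second probe set gave log2 ratios of 1.05 and 0.96. Gusb, the beta-glucuronidase, had a log2 ratio of 0.93 with SNAIL2 and -0.50 with TWIST1, but a second Gusb probe set was at -0.66 and -0.14. Arsa, the sulfatase of myelin lipids, was at 0.87 with SNAIL2 and 0.89 with ZEB1. Hexa, a subunit of beta-hexosaminidase, was at 0.75 with SNAIL2 and 0.53 with ZEB1, and Gla, the alpha-galactosidase, at 0.61 and 0.54. A second Gla probe set was at least 0.54 with SNAIL2 and at least 1.03 with ZEB1, since it was under the floor in BRAF-on. The sialidase gene Neu1 was at 0.28 and 0.82. Asah1, the acid ceramidase, and Ppt1, the thioesterase that removes palmitate from proteins, lay slightly below 0 with SNAIL2 (-0.09 and -0.13) and above it with ZEB1 (0.49 and 0.52) in their used probe sets. Other Ppt1 probe sets disagreed with SNAIL2, at 0.74 and -0.42, and gave 0.68 and 0.65 with ZEB1.

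**Figure D2:**
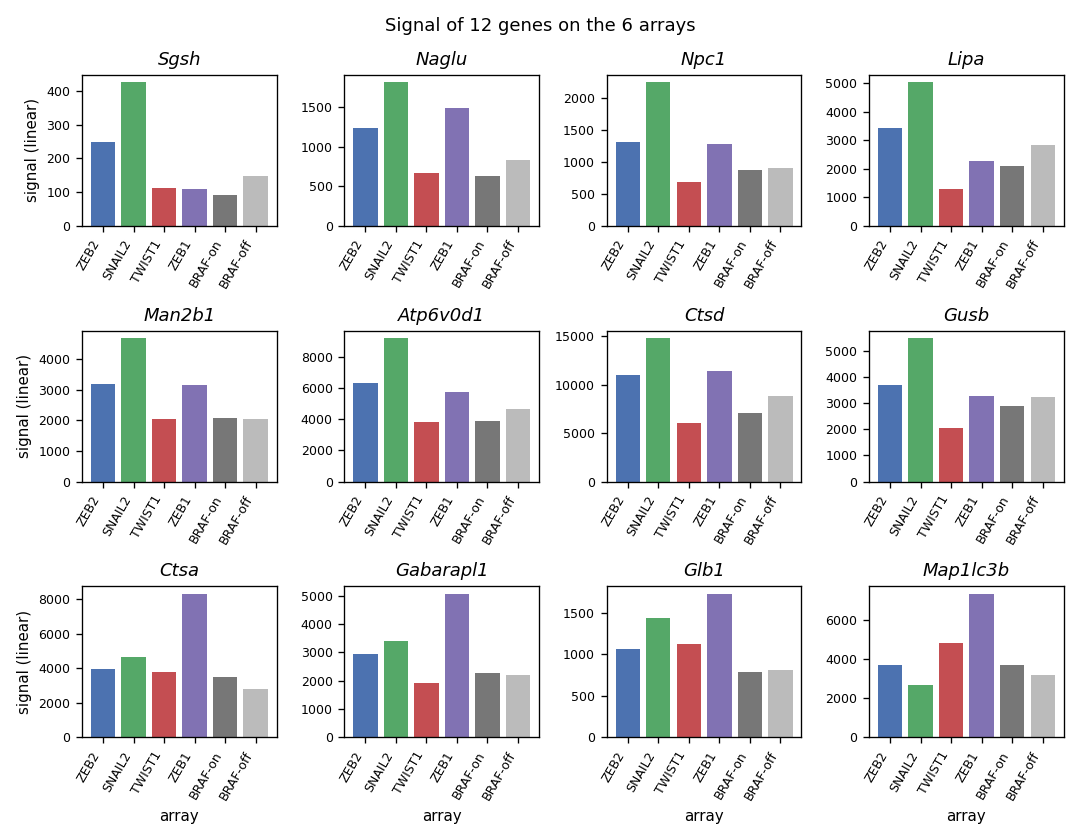
Signal on a linear scale by the authors' scaling (vertical axes, from 0) of 12 genes on the 6 arrays, 1 bar per array and no error bars since each group had 1 array. Sgsh, Naglu, Npc1, Lipa, Man2b1, Atp6v0d1, Ctsd and Gusb are highest with SNAIL2 (Sgsh 426, Ctsd 14826), and Ctsa, Gabarapl1, Glb1 and Map1lc3b with ZEB1 (Ctsa 8332, Map1lc3b 7329); with poly-A control scaling the SNAIL2 bars would be 2.44-fold lower relative to BRAF-on.

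Among the proteases, some genes were highest with SNAIL2 and others with ZEB1. Ctsd, the main aspartic protease of the lysosome, had 11001 with ZEB2, 14826 with SNAIL2, 6051 with TWIST1 and 11391 with ZEB1, against 7088 in BRAF-on and 8867 in BRAF-off. It was 2.09-fold above BRAF-on with SNAIL2. Ctsa, the carboxypeptidase that also protects beta-galactosidase and the sialidase from breakdown, had 3982 with ZEB2, 4675 with SNAIL2, 3789 with TWIST1 and 8332 with ZEB1, against 3525 in BRAF-on and 2796 in BRAF-off. Its ZEB1 array stood apart from the other five, at 2.36-fold over BRAF-on, while a second Ctsa probe set gave a log2 ratio of 0.48 there.

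Ctsl was lower than BRAF-on with SNAIL2 and higher with ZEB1 in its used probe set, at 8601 with ZEB2, 6737 with SNAIL2, 10885 with TWIST1 and 16655 with ZEB1, against 9344 in BRAF-on and 6630 in BRAF-off. A second Ctsl probe set, nearer the floor, gave log2 ratios to BRAF-on of 0.06 with SNAIL2 and 0.87 with ZEB1. Ctsb, another cysteine protease gene, had a log2 ratio to BRAF-on of 0.74 with ZEB1, and its other 4 probe sets gave 1.01 to 1.65 there, one of them as a bound since it was under the floor in BRAF-on. Tpp1, which removes tripeptides from proteins, was at 0.34 with ZEB2, 0.31 with SNAIL2, -0.26 with TWIST1 and 0.66 with ZEB1. Its second probe set gave 0.83, 1.03, 0.23 and 1.297, past 2-fold with SNAIL2 and ZEB1 and on the other side of 0 with TWIST1. Ctsz, a carboxypeptidase gene, lay between -0.38 with TWIST1 and 0.27 with SNAIL2 in its used probe set, and its other probe sets gave 0.61 and 0.66 with SNAIL2, 0.57 each with ZEB1, and -0.01 and -0.27 with TWIST1. In all, 6 of 6 protease genes entered were above BRAF-on with ZEB1, with a median of 0.71, and 5 of 6 with SNAIL2, with a median of 0.29, by the authors' scaling, and on the poly-A controls these medians were 0.24 and -0.997.

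Both cofactors stayed under 2-fold against BRAF-on in their used probe sets, while Grn was 2.04-fold above BRAF-off with ZEB1. Psap, the precursor of the saposins that help lipid hydrolases, was between -0.30 (TWIST1) and 0.28 (ZEB1) in log2 ratio to BRAF-on. Grn, which encodes progranulin, had 8630 with ZEB2, 11040 with SNAIL2, 9346 with TWIST1 and 13425 with ZEB1, against 7391 in BRAF-on and 6582 in BRAF-off. All 4 arrays with a factor were above both controls for Grn, and its other probe sets gave log2 ratios of 1.34 and 1.09 with ZEB1, beyond the 0.86 of the used one.

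Among 7 membrane and lipid transport genes the medians were 0.49 with SNAIL2 and 0.55 with ZEB1 by the authors' scaling, or -0.72 and 0.08 on the poly-A controls. Npc1, the membrane protein that exports cholesterol from the lysosome, had 1316 with ZEB2, 2252 with SNAIL2, 686 with TWIST1 and 1276 with ZEB1, against 872 in BRAF-on and 904 in BRAF-off. Npc2, the soluble protein that hands cholesterol to it, had 9921 with ZEB2, 10051 with SNAIL2, 11629 with TWIST1 and 17499 with ZEB1, against 11559 in BRAF-on and 9803 in BRAF-off. The partners thus had their highest array in different places, Npc1 with SNAIL2 at 2.58-fold over BRAF-on and Npc2 with ZEB1 at 1.51-fold in its used probe set. Other Npc2 probe sets gave log2 ratios of 0.85 and 1.51 with ZEB1, the latter past 2-fold. Mcoln1, a calcium channel of the lysosomal membrane, had a log2 ratio of 0.77 with SNAIL2, -0.63 with TWIST1 and 0.56 with ZEB1. A second Mcoln1 probe set, above the floor on all arrays, gave 1.05, -0.04 and 0.78, so that the TWIST1 value rests on 1 probe set. Scarb2, the receptor that carries glucocerebrosidase to lysosomes, was at 0.57, -0.01 and 0.72, and its second probe set gave 0.11, 0.48 and 0.87. Lamp1 was at 0.38 with ZEB2, 0.49 with SNAIL2, -0.04 with TWIST1 and 0.38 with ZEB1, with the 4 cores in its promoter shown above.

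Lamp2, whose gene makes several membrane protein isoforms that differ at the 3′ end, gave different answers by probe set. The used probe set and a second one lay between -0.03 and 0.35 on all 4 comparisons with BRAF-on. The remaining pair were at -0.99 and -0.94 with SNAIL2 and at 1.27 and 1.11 with ZEB1. The signals of the second of this pair for Lamp2 were 3513 with ZEB2, 2333 with SNAIL2, 6060 with TWIST1 and 9645 with ZEB1, against 4470 in BRAF-on and 3370 in BRAF-off. The files do not say which isoform a probe set reads.

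**Figure D3:**
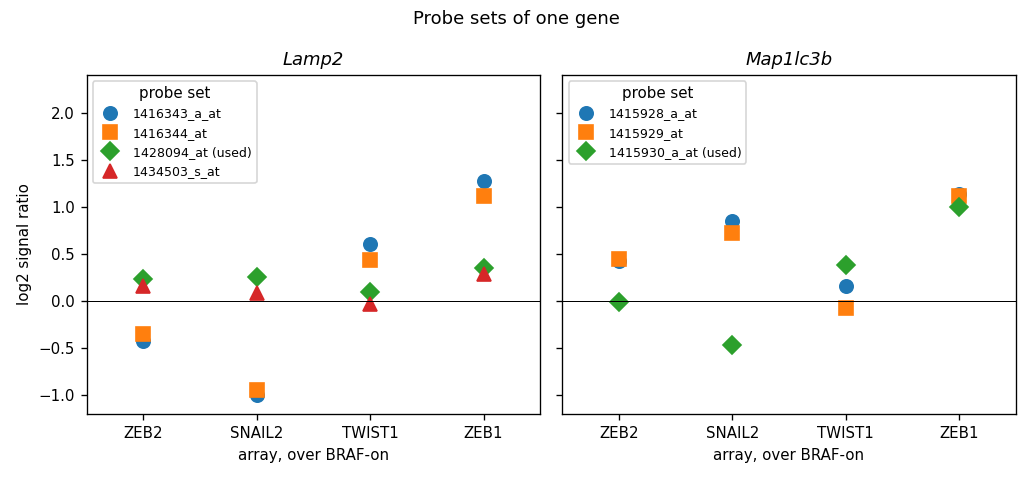
Log2 signal ratio to BRAF-on (vertical axis) on the 4 arrays with an added factor, for each Lamp2 and Map1lc3b probe set over 100 signal units on all arrays, by the authors' scaling. For Lamp2 a pair of probe sets lies near -1 with SNAIL2 (-0.99 and -0.94) and above 1 with ZEB1 (1.27 and 1.11) while the others stay near 0, and for Map1lc3b the used probe set is at -0.47 with SNAIL2 and the others at 0.85 and 0.72, which poly-A control scaling would put below 0 too.

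Of the 3 proton pump subunits in the list, Atp6v0d1 was the one past 2-fold. It had 6283 with ZEB2, 9200 with SNAIL2, 3823 with TWIST1 and 5725 with ZEB1, against 3882 in BRAF-on and 4670 in BRAF-off, or 2.37-fold over BRAF-on with SNAIL2. Atp6v1a, the catalytic subunit, was at a log2 ratio of 0.45 with ZEB2, 0.43 with SNAIL2, 0.07 with TWIST1 and 0.31 with ZEB1. Its second probe set gave 0.09, 0.15, -0.49 and 0.16 in the same order. Atp6v1h, a regulatory subunit, was at -0.20, -0.39, 0.06 and 0.25. Another Atp6v1h probe set, near the floor, was highest in BRAF-on (91.3). It gave -0.45 with TWIST1 and -0.22 with ZEB1, on the other side of 0, and at most -0.52 with ZEB2 and SNAIL2.

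The listed regulators stayed under 2-fold in each comparison with BRAF-on. Tfeb had signals of 346 with ZEB2, 444 with SNAIL2, 217 with TWIST1 and 320 with ZEB1, against 263 in BRAF-on and 299 in BRAF-off. Tfe3 had 910 with ZEB2, 1370 with SNAIL2, 795 with TWIST1 and 1167 with ZEB1, against 931 in BRAF-on and 804 in BRAF-off. Both were highest with SNAIL2 (1.69-fold and 1.47-fold over BRAF-on) and lowest with TWIST1. Their relatives Mitf and Tfec, which are not in the list of 38, had wider ranges. Mitf had 11060 with ZEB2, 14255 with SNAIL2, 245 with TWIST1 and 1410 with ZEB1, against 5036 in BRAF-on and 7191 in BRAF-off. Tfec had 289 with ZEB2 and 648 with SNAIL2, was under the floor with TWIST1 and ZEB1, and had 162 in BRAF-on and 336 in BRAF-off. Both were thus above BRAF-on with ZEB2 and SNAIL2, and below it with TWIST1 and ZEB1.

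In their used probe sets the 3 autophagy genes of the list were highest with ZEB1. Their median log2 ratio to BRAF-on was 0.996 there, or 0.53 on the poly-A controls. Map1lc3b, which encodes the LC3 protein that coats autophagosomes, had 3665 with ZEB2, 2653 with SNAIL2, 4790 with TWIST1 and 7329 with ZEB1, against 3675 in BRAF-on and 3200 in BRAF-off. The ZEB1 array was 1.99-fold above BRAF-on for Map1lc3b, and its other measured probe sets gave log2 ratios of 1.14 and 1.11 there. With SNAIL2 its probe sets disagreed, with the used one at -0.47 and the others at 0.85 and 0.72. Gabarapl1, an LC3 relative, had 2961 with ZEB2, 3395 with SNAIL2, 1934 with TWIST1 and 5081 with ZEB1, against 2267 in BRAF-on and 2212 in BRAF-off. That was 2.24-fold over BRAF-on with ZEB1, and its second probe set gave a log2 ratio of 1.15. Sqstm1, the cargo receptor also called p62, was at -0.07 with ZEB2, 0.36 with SNAIL2, 0.14 with TWIST1 and 0.47 with ZEB1. A second Sqstm1 probe set, near the floor, was highest in BRAF-on (96.4). It gave -0.51 with SNAIL2, -0.04 with ZEB1, and at most -0.60 with ZEB2 and TWIST1.

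Most members had their highest signal with SNAIL2 or ZEB1 by the authors' scaling and in their used probe sets. Other probe sets of Atp6v1h and Sqstm1 were highest in BRAF-on. Of the 36 members that reached the floor on an array, 16 were highest with SNAIL2 (44.4%, against 32.5% of 12040 genes) and 18 with ZEB1 (50%, against 29.2%). The exceptions were Cln3, highest in BRAF-on (8.17% of all genes), and Atp6v1a, highest with ZEB2 (6.44%). Cln3 is among the 36 only because it reached the floor in BRAF-on, so its place there was set by the floor. For Atp6v1a the margin was small (6941 with ZEB2 and 6853 with SNAIL2), and its second probe set was highest with ZEB1 (3234). None was highest with TWIST1 (16.4%) or in BRAF-off (7.33%). Those highest with SNAIL2 were 8 of the glycan and lipid hydrolases, Ctsd, Ctsz, Lamp1, Npc1, Mcoln1, Atp6v0d1, Tfeb and Tfe3. Those highest with ZEB1 were the proteases Ctsa, Ctsb, Ctsl and Tpp1, the hydrolases Glb1, Neu1, Arsa, Asah1 and Ppt1, Psap, Grn, Lamp2, Scarb2, Npc2, Atp6v1h and all 3 autophagy genes. At the low end 17 members had their lowest signal with TWIST1 (47.2%, against 20.5% of all genes), 8 in BRAF-off (22.2%, against 14.3%) and 7 in BRAF-on (19.4%, against 11.0%). With SNAIL2 3 were lowest (25.7% of all genes), with ZEB2 1 (8.51%), and with ZEB1 0. This pattern depends on the scaling: on the poly-A controls 0 members were highest with SNAIL2 and 31 lowest there, as 81.0% of all genes were, while 10 were highest with ZEB1, against 8.76% of all genes, and 14 with TWIST1, against 62.6%.

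**Figure D4:**
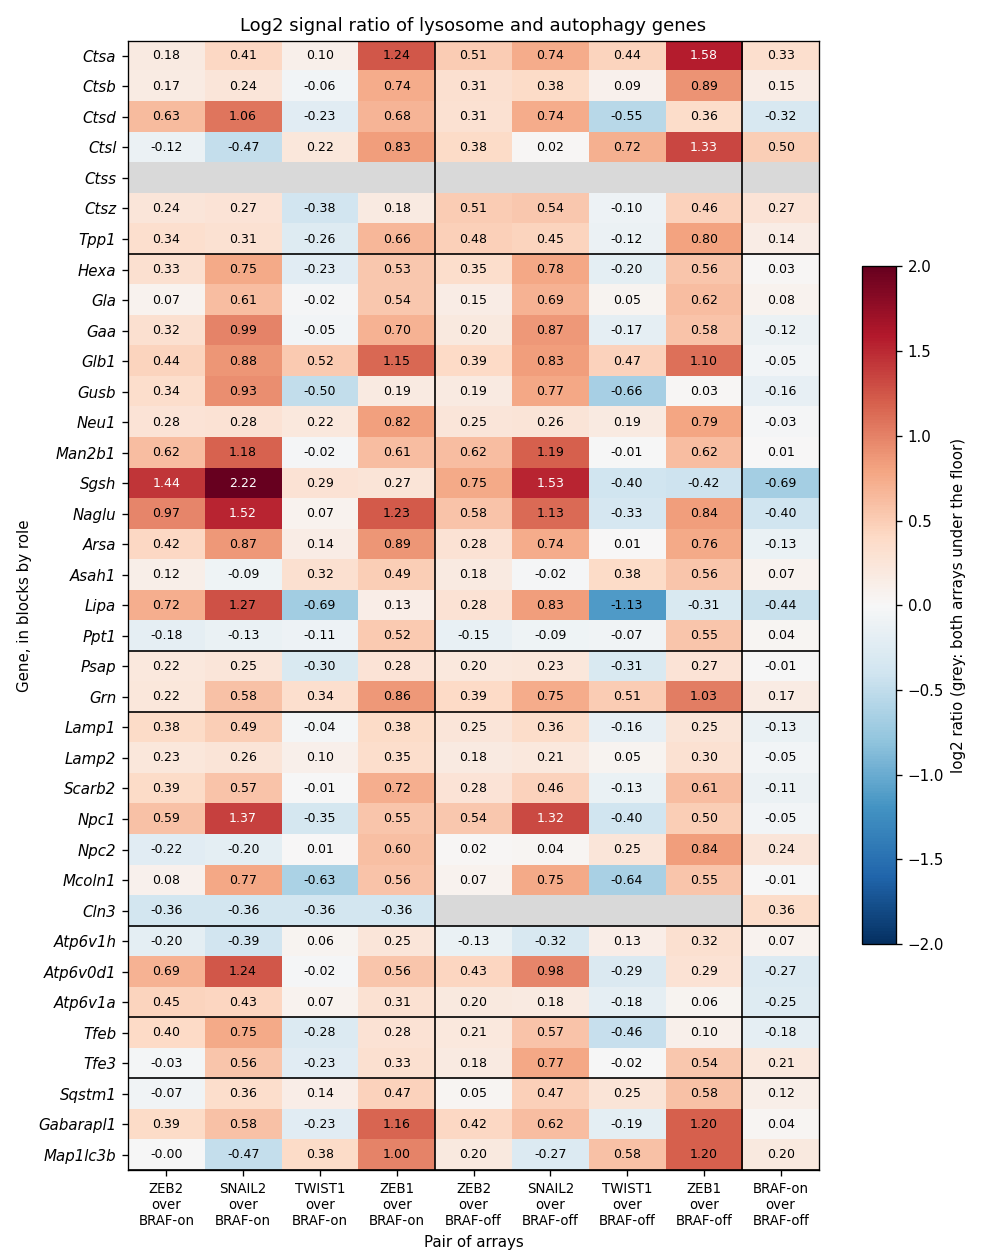
Log2 signal ratio (colour and number, by the authors' scaling) of 37 genes (rows, in blocks by role) for 9 pairs of arrays (columns). Grey cells had both arrays under the floor (Ctss throughout), and the Cln3 values have 1 array under it and are bounds. The SNAIL2 columns are reddest in the hydrolase block (Sgsh 2.22, Naglu 1.52) and the ZEB1 columns in the protease and autophagy blocks (Ctsa 1.24, Gabarapl1 1.16 over BRAF-on); poly-A control scaling lowers the SNAIL2 over BRAF-on values by 1.29, except that of Cln3, which the floor sets, so that 3 of 36 stay above 0.

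The same arrays were also set against BRAF-off. The median over the 35 members entered was 0.62 with SNAIL2, 0.56 with ZEB1, 0.28 with ZEB2 and -0.10 with TWIST1, against 0.10, 0.08, 0.02 and 0.01 over all genes. Poly-A control scaling gave a SNAIL2 median of -0.41 (all genes -0.89), a ZEB1 median of 0.35 (all genes -0.13), a ZEB2 median of 0.12 (all genes -0.14) and a TWIST1 median of 0.34 (all genes 0.44). With ZEB2, 33 of 35 members lay above 0 (52.6% of all genes), with SNAIL2 31 (57.8%), with ZEB1 33 (56.6%) and with TWIST1 14 (51.2%). At least 2-fold above BRAF-off were 6 members with ZEB1 (7.06% of all genes), namely Ctsa, Ctsl, Glb1, Grn, Gabarapl1 and Map1lc3b, and 4 with SNAIL2 (4.0%), namely Man2b1, Sgsh, Naglu and Npc1. None was 2-fold lower with ZEB1 (5.2%) or SNAIL2 (5.31%). With ZEB2 0 members were 2-fold higher (1.02%) or lower (0.325%), and with TWIST1 0 were higher (3.11%) and 1 lower (2.61%). The comparisons with BRAF-on share that array and those with BRAF-off share the other, so their values are not independent.

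Counts at a size of 1.5-fold are given beside those at 2-fold, by the authors' scaling. With SNAIL2 15 of 36 members were at least 1.5-fold above BRAF-on (17.3% of all genes), with ZEB1 16 (14.8%) and with ZEB2 7 (6.01%), and 0 were that much lower on these 3 arrays (15.7%, 10.8% and 3.98%). With TWIST1 0 were that much higher (6.38%) and 2 lower (6.28%), Lipa in all its probe sets and Mcoln1 in its used one only. Against BRAF-off, 18 of 35 were at least 1.5-fold higher with SNAIL2 (16.2% of all genes), 15 with ZEB1 (17.8%), 2 with ZEB2 (4.83%) and 1 with TWIST1 (8.48%). Those 1.5-fold lower numbered 3 with TWIST1 (7.22%) and 0 with SNAIL2 (13.7%), ZEB1 (12.9%) and ZEB2 (1.99%).

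Genes of the same organelles outside the list were counted too. Of 19 other lysosomal hydrolase genes entered, all 19 lay above BRAF-on with ZEB1 (56.7% of all genes), with a median of 0.65, and 13 with SNAIL2 (54.5%), with a median of 0.28, by the authors' scaling, and on the poly-A controls these medians were 0.18 and -1.01. Dnase2a, the lysosomal DNase, had 596 with ZEB2, 775 with SNAIL2, 1117 with TWIST1 and 1872 with ZEB1, against 625 in BRAF-on and 621 in BRAF-off. It was the one gene of these past 2-fold against BRAF-on with ZEB1 (log2 ratio 1.58), a size that 4.49% of all genes reached. With ZEB2 and TWIST1 the medians of these hydrolases were 0.08 and 0.07, or -0.33 and 0.26 on the poly-A controls.

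Of 27 other lysosomal membrane and sorting genes, 8 were at least 2-fold above BRAF-on with SNAIL2 (5.61% of all genes) and 2 with ZEB1 (4.49%, not far from the 2 of 27), with medians of 0.57 and 0.46 by the authors' scaling and -0.69 and -0.01 on the poly-A controls. Clcn7, the chloride exchanger of the lysosome, had 876 with ZEB2, 1483 with SNAIL2, 471 with TWIST1 and 629 with ZEB1, against 554 in BRAF-on and 656 in BRAF-off. Ctns, the cystine exporter, stood at a log2 ratio of 1.31 with SNAIL2, the amino acid transporter gene Slc36a1 at 1.21 and Vps41, a tethering subunit for lysosome fusion, at 1.13. Tmem175, a lysosomal ion channel gene, was at 1.21 with ZEB1, and Vps11 at 1.01.

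Other proton pump subunits had medians of 0.27 with ZEB2, 0.26 with SNAIL2, -0.16 with TWIST1 and 0.30 with ZEB1 over 14 genes by the authors' scaling, and on the poly-A controls each of these turned sign (-0.14, -1.03, 0.03 and -0.17), as the TWIST1 median did with median centring. Atp6v0a1, a membrane subunit, was the exception, with 457 with ZEB2, 1294 with SNAIL2 and 281 with ZEB1, under the floor with TWIST1, and 203 in BRAF-on and 368 in BRAF-off. Its log2 ratio to BRAF-on was 2.67 with SNAIL2, and with TWIST1 it was at most -1.67. Atp6v0b was at 1.40 with SNAIL2.

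Of 30 other autophagy genes, 3 were at least 2-fold above BRAF-on with ZEB1 (4.49% of all genes) and 0 lower (3.93%), with a median of 0.42, or -0.05 on the poly-A controls. These were the cargo receptor gene Nbr1 (1.02), the LC3 relative Map1lc3a (1.01) and Calcoco1 (1.08). With SNAIL2 the count lower was near the share of all genes (6.42%), and 5.61% of all genes were at least 2-fold higher. There 3 were higher (Ulk1, the kinase that starts autophagy, at 1.12, Atg7 at 1.09 and Atg9a at 1.01) and 2 lower (Rb1cc1, a partner of ULK1, at -1.88 and Bnip3 at -1.12), with a median of 0.16, or -1.13 on the poly-A controls. Among 18 genes of the mTORC1 nutrient sensor and folliculin, the GTPase gene Rragd differed widely between arrays. It had 1476 with ZEB2, 1934 with SNAIL2 and 218 with ZEB1, was under the floor with TWIST1, and had 502 in BRAF-on and 966 in BRAF-off. Its order over the 6 arrays was that of Mitf.

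Over 13 melanosome genes the median log2 ratio to BRAF-on was 1.12 with ZEB2, 1.51 with SNAIL2, -3.35 with TWIST1 and -1.15 with ZEB1, and no scaling turned a sign. The medians of the lysosome and autophagy members were 0.30, 0.57, -0.02 and 0.55 in the same order. With ZEB2 and SNAIL2 both groups were thus above BRAF-on by the authors' scaling, with ZEB1 they lay on opposite sides of it, and with TWIST1 the melanosome genes were below it and the members near it. The gap between the groups was not tested. Among macrophage markers, Cd68, which is itself a lysosomal membrane protein, had 178 with ZEB2, 258 with SNAIL2, 134 with TWIST1 and 466 with ZEB1, against 128 in BRAF-on and 131 in BRAF-off, and its part in the members' values was not tested.

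Members with the CLEAR core in the promoter were set beside those without it. With SNAIL2 the median log2 ratio to BRAF-on was 0.82 over 14 members with CACGTG and 0.46 over 18 without, with 9 and 5 at least 1.5-fold higher, by the authors' scaling, and poly-A control scaling puts both medians below 0, as it does with ZEB2. With ZEB1 the medians were 0.62 and 0.53, with ZEB2 0.40 and 0.26, and with TWIST1 0.02 and -0.17, where that scaling puts both above 0. Over BRAF-off the order was not the same throughout, with medians of 0.74 with the core and 0.51 without it for SNAIL2, 0.31 and 0.23 for ZEB2, 0.58 and 0.57 for ZEB1, and -0.17 and -0.09 for TWIST1. The 7 members with the longer TCACGTGA had a median over BRAF-on of 0.18 with ZEB2, below the 0.26 of members without the core, and of 0.61 with SNAIL2. For BRAF-on over BRAF-off the medians were -0.13 with CACGTG, 0.03 without it and -0.01 with TCACGTGA. The ranges overlapped in every comparison, and with SNAIL2 reached from -0.47 to 2.22 with the core and from -0.47 to 1.27 without. Over all genes that entered, the medians with SNAIL2 were 0.11 over 1088 with the core and 0.07 over 8196 without. Ctsl, with 1 core 236 bases before its start, was the lowest of those with the core with SNAIL2 in its used probe set. Gla, with cores 227 and 194 bases before its start, was at 0.61 there, and the part of distance was not tested.

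**Figure D5:**
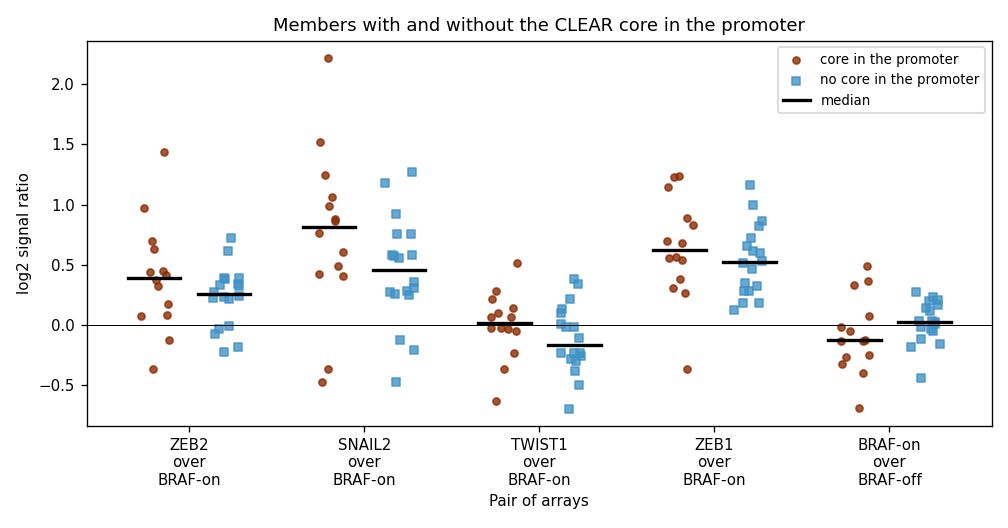
Log2 signal ratio (vertical axis, by the authors' scaling) of members with (brown circles) and without (blue squares) the letters of the CLEAR core in the RefSeq promoter, for 5 pairs of arrays, with the median of each (black bar). The bar of members with the core is higher with SNAIL2 (0.82 against 0.46) and the points overlap in every pair; on poly-A control scaling the SNAIL2 values are lower by 1.29, except that of Cln3, which the floor sets, and this puts both SNAIL2 medians below 0, and those with ZEB2 fall below 0 too.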

How the data were processed

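Total RNA of melan-a cells was amplified with the GeneChip 3′ IVT Express kit (per the labels) and measured on 6 1-colour Affymetrix arrays, 1 per group. The submitters' processing notes name MAS5 and Affymetrix Expression Console 1.1, and the deposited signal intensities are linear. Tested on the values, the mean of each array after trimming 2% at both ends was 500.

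Probe sets (45101, of them 64 controls) were named through GEO's platform annotation, which gave 34945 of them 1 symbol, gave 932 several and left 9160 unnamed. Those with 1 symbol were used, and 34741 were found in the RefSeq gene table of GRCm38.p6, through which symbols were updated. Log2 signals were compared without further normalization. The floor replaced lower values, genes with both arrays under it were left out of a comparison, and a ratio with 1 array under it is a bound. The number of arrays limits the precision, and no p-value is given.

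The members and the 11 other gene lists were chosen with earlier results of these data known. All members could be named, and genes of the other lists if at least 2-fold apart in a comparison, up to 4 per list and comparison by size. Cd68, Cd53, Atg9a and the undetected markers were named after their values were seen. The alternatives were quantile normalization, median centring, a floor at the 60th percentile, no floor, the median over a gene's probe sets, and dropping probe sets that can match several transcripts. Poly-A control scaling (24 probe sets) was chosen after seeing the data. Counting was tested on simulated data. Python 3.11.15, numpy 2.4.6, pandas 2.3.3 and scipy 1.17.1 were used.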

Additional observations from a re-analysis of the deposited data

How the results depend on the processing

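No paired analysis was possible because each group had 1 array, so no replicate could be left out either. The results compared were the members' median log2 ratio and their counts at least 2-fold higher and lower, in 9 comparisons (27 in all). A median that shifted by at most 0.1 and a count within 1.5 times counted as unmoved, and quantile normalization left all 27 so. Median centring gave medians of -0.20 for BRAF-on over BRAF-off, 0.17 for TWIST1 over BRAF-on, and over BRAF-off 0.13 with ZEB2, 0.50 with SNAIL2 and 0.33 with ZEB1, with 2 members 2-fold higher for ZEB2 over BRAF-on and 2 for ZEB1 over BRAF-off. With the floor at the 60th percentile 0 members were 2-fold higher for ZEB2 over BRAF-on. With no floor 1 was higher for BRAF-on over BRAF-off, 1 for TWIST1 over BRAF-on, 1 for ZEB2 and 1 for TWIST1 over BRAF-off, and 1 lower for ZEB2 over BRAF-on, 2 for SNAIL2 over BRAF-on and 1 for ZEB2 over BRAF-off. The median over a gene's probe sets gave ZEB1 over BRAF-on a median of 0.67 with 9 members higher, and TWIST1 1 lower over BRAF-on and 2 over BRAF-off. Without probe sets that can match several transcripts 1 was lower for TWIST1 over BRAF-on. Poly-A control scaling, chosen after seeing the data, moved the most. Its medians were 0.25 for BRAF-on over BRAF-off, over BRAF-on -0.12 with ZEB2, -0.71 with SNAIL2, 0.16 with TWIST1 and 0.084 with ZEB1, and over BRAF-off 0.12, -0.41, 0.34 and 0.35 in the same order. It left 0 members higher for SNAIL2 over either control and for ZEB1 over BRAF-on, 11 lower for SNAIL2 over BRAF-on and 5 over BRAF-off, 2 higher and 0 lower for TWIST1 over BRAF-off and 2 higher for ZEB1 over BRAF-off. Poly-A control scaling takes the amount of control RNA in each sample as equal, which is not known here. Which scaling is nearer to the RNA content of the cells was not tested. Members near the floor (Cln3, Sgsh in BRAF-on) have the least certain ratios. Probe sets of a member could also differ in sign, among members with at least 2 probe sets above the floor on both arrays. Over BRAF-on this held for 7 of 19 such members with SNAIL2, 11 of 19 with TWIST1, 5 of 18 with ZEB2 and 3 of 20 with ZEB1. For BRAF-on over BRAF-off it held for 10 of 17.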
